A study of Arabidopsis thaliana with 148 samples.

Results

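The salicylic acid arm of plant immunity was followed here through 10 Arabidopsis thaliana genes, EDS1 (AT3G48090), PAD4 (AT3G52430), CBP60G (AT5G26920), SARD1 (AT1G73805), ICS1 (AT1G74710), EDS5 (AT4G39030), NPR1 (AT1G64280), PR1 (AT2G14610), PR2 (AT3G57260) and PR5 (AT1G75040). They were taken by locus identifier, whatever their values, from both deposited tables of read counts, where they are 10 of 38194 genes. All libraries came from whole seedlings of 1 transgenic line, p35S:HF-RPL18, collected on day 13 after sowing. In this line the 35S promoter, which is active in most cells, drives a tagged ribosomal protein L18, so that ribosomes can be purified together with the messages bound to them (TRAP, translating ribosome affinity purification). Libraries were made from the polyadenylated RNA of whole extracts (total mRNA) and of the purified ribosomes (TRAP mRNA).

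Seeds were kept at 4 °C for 3 days, and seedlings then grew for 10 days at 22 °C in 12 h light and 12 h dark on medium with 1.5% sucrose, with constant light of reduced intensity from day 11. Time of day is given in hours as zeitgeber time (ZT), and ZT48 is where the labels place dawn of day 13, although light was then constant. In the time course, separate sets of seedlings spent 1 h at 37 °C that ended at ZT48, ZT51, ZT54, ZT57, ZT60, ZT63, ZT66 or ZT69 and were collected at once. Controls stayed at 22 °C and were collected at the same times and at ZT72. In the recovery experiment seedlings were at 37 °C from ZT53 to ZT54 and were collected after 0, 1, 3 or 6 h back at 22 °C, with controls kept at 22 °C throughout. The 148 libraries form 50 groups by kind of RNA, time and treatment, of which 48 hold 3 libraries and 2 hold 2 (the ZT57 controls of total mRNA and the ZT60 controls of TRAP mRNA). Whether the libraries of a group are from separate cultures is not in the labels, and the spread behind the p-values may therefore be partly technical.

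Salicylic acid is the hormone of defence against pathogens that feed on living tissue. EDS1 and PAD4 are partner proteins that relay signals from immune receptors inside the cell. CBP60G and SARD1 are related transcription factors that switch on ICS1, whose product is the chloroplast enzyme isochorismate synthase, and EDS5, the chloroplast transporter that exports isochorismate, the precursor of salicylic acid. NPR1 binds salicylic acid and co-activates the response genes PR1, PR2 (a beta-1,3-glucanase) and PR5 (a thaumatin-like protein), the standard markers of the active pathway. The questions that the design addresses are how 1 h of heat alters total and ribosome-bound levels of such genes, whether the effect depends on the time of day, and how levels return after heat.

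Total counts per library ranged from 1396305 to 12939305 for total mRNA and from 3783353 to 13706459 for TRAP mRNA in the time course, and from 3080248 to 8512961 and from 4193134 to 8745785 in the recovery experiment. Levels below are counts relative to library size (CPM) after TMM scaling, and fold changes are log2 values with a standard error from the quasi-likelihood test of edgeR, adjusted over all genes tested and called at an adjusted p below 0.05. Scaling to the total count alone would move the median gene of the mean heat comparison by -0.95 in total mRNA and by -1.17 in TRAP mRNA. At 0 h of recovery the shift would be -0.73 and -0.87, and at 3 h in total mRNA 0.24. Each fold change below is relative to the typical gene. The summed CPM of 5 heat-induced genes was 20140 to 32140 in the heated total mRNA libraries and 12.2 to 609.6 in their controls, and 45540 to 72000 against 16.4 to 253.5 in TRAP mRNA. Shoot and root marker genes were present in every group, with median summed CPM of 18140 in controls and 20860 after heat for 4 shoot markers and of 1275 and 1234 for 5 root markers in total mRNA. Of these, 3 of the 4 shoot markers were called higher on the TMM scale (median 0.41 of the list), beside 36.9% of all genes. Lower calls were made for 2 of the 5 root markers (median -0.11), beside 43.9% of all genes. Under total-count scaling RCA alone of the shoot markers stayed above 0, at 0.27. The part of these markers in the results was not tested. In whole seedlings, fewer cells that express a gene and less RNA per cell cannot be told apart.

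The 10 genes lie on 5 chromosomes. By the RefSeq annotation of TAIR10.1, PAD4 spans chr3:19431095-19434450 on the plus strand, EDS1 chr3:17755329-17758147 on the minus strand and SARD1 chr1:27744790-27749248 on the minus strand. ICS1 spans chr1:28070295-28074177 on the plus strand and EDS5 chr4:18185437-18189224 on the plus strand. CBP60G spans chr5:9475679-9478777 (plus), NPR1 chr1:23852748-23855658 (minus), PR1 chr2:6241640-6242541 (minus), PR2 chr3:21188397-21189967 (minus) and PR5 chr1:28177670-28179022 (plus). Exons of SARD1 overlap those of GIP2 (AT1G73790) on the other strand over 441 bases, those of EDS5 overlap AT4G39040 over 213 bases, and those of NPR1 overlap AT1G08667 over 214 bases and AT1G64270 over 38 bases. Because the labels do not say whether counting used strand, reads of such overlapping pairs cannot be told apart. Of all stretches of 50 bases in its exons, EDS1 shares 0.977% with other places in the genome, ICS1 0.44% and PAD4 0.278%, and the other 7 genes share none.

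The 250 bases before the start of 4 of the genes are shown because these genes differ in how they responded. PAD4 was the most strongly lowered by heat and EDS5 the one that was higher relative to the typical gene (lower as a share of all reads). SARD1, like PAD4, differed in its heat effect between total and TRAP mRNA. ICS1 codes for the first enzyme of synthesis. They are RefSeq sequence of TAIR10.1, read 5′ to 3′ on the strand of the gene, at chr3:19430845-19431094 (plus) for PAD4, chr4:18185187-18185436 (plus) for EDS5, chr1:27749249-27749498 (minus) for SARD1 and chr1:28070045-28070294 (plus) for ICS1. Capitals mark matches to 6 short motifs on either strand, which were TTGAC (the W-box core), TGACG (the as-1 core), and GAAATTT (a motif that CBP60G and SARD1 bind). The others were CGCGT (the CGCG core), CACGTG (the G-box) and GAANNTTC (a pair of heat shock factor sites). Matches to the first and the second motif overlap in SARD1.
PAD4: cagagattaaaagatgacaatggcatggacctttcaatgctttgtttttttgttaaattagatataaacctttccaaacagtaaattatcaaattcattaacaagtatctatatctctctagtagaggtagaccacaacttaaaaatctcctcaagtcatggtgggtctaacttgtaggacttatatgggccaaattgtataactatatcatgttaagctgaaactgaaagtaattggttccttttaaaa
EDS5: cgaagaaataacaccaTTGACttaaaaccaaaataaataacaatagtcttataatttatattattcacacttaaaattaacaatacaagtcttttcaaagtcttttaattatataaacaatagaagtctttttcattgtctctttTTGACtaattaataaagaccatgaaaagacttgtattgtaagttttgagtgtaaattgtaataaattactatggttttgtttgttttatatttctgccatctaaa
SARD1: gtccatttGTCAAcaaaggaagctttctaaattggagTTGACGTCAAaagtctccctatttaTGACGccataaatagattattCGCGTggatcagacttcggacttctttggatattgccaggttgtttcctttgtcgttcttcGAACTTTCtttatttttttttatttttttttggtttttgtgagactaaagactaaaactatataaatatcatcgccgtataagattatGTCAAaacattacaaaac
ICS1: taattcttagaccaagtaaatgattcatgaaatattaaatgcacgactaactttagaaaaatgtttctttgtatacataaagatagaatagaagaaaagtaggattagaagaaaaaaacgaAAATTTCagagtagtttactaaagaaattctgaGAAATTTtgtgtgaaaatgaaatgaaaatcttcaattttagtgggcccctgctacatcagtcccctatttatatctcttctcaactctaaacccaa

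SARD1 carried 4 matches to the W-box core, which WRKY transcription factors bind, and 3 to the as-1 core, 1 to the CGCG core and 1 to the heat shock factor pair. EDS5 carried 2 W-box cores and ICS1 2 matches to the CBP60 motif, while the PAD4 window held none of the 6. Windows of EDS1, PR1 and PR5 held 1 W-box core each, so that 5 of the 10 genes had one, beside 44.9% of 27443 promoter windows of the same length over the genome. The share over the genome was 18.6% for the as-1 core, 12.5% for the CBP60 motif, 6.87% for the CGCG core, 6.49% for the G-box (PR2 alone of the 10) and 9.55% for the heat shock factor pair (CBP60G, SARD1 and PR5). These matches describe the letters in the window only.

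Over the 8 times of day, 1 h of heat lowered 7 of the 10 genes in total mRNA and raised 1, EDS5, which fell in place of rising when libraries were scaled to their total counts. In TRAP mRNA 6 were lower and 1, again EDS5 with the same dependence on scaling, was higher. Heat called 80.7% of the 21234 genes tested in total mRNA (43.9% lower and 36.9% higher) and 83.6% of 21079 in TRAP mRNA (45.5% lower and 38.1% higher), so calls on 8 and 7 of 10 members are close to the background. The median log2 fold change of the 10 was -0.84 in total mRNA and -0.71 in TRAP mRNA, beside -0.08 and -0.09 over all genes tested. PR1 and PR2 were the members without a call in either kind of RNA.

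**Figure D1:**
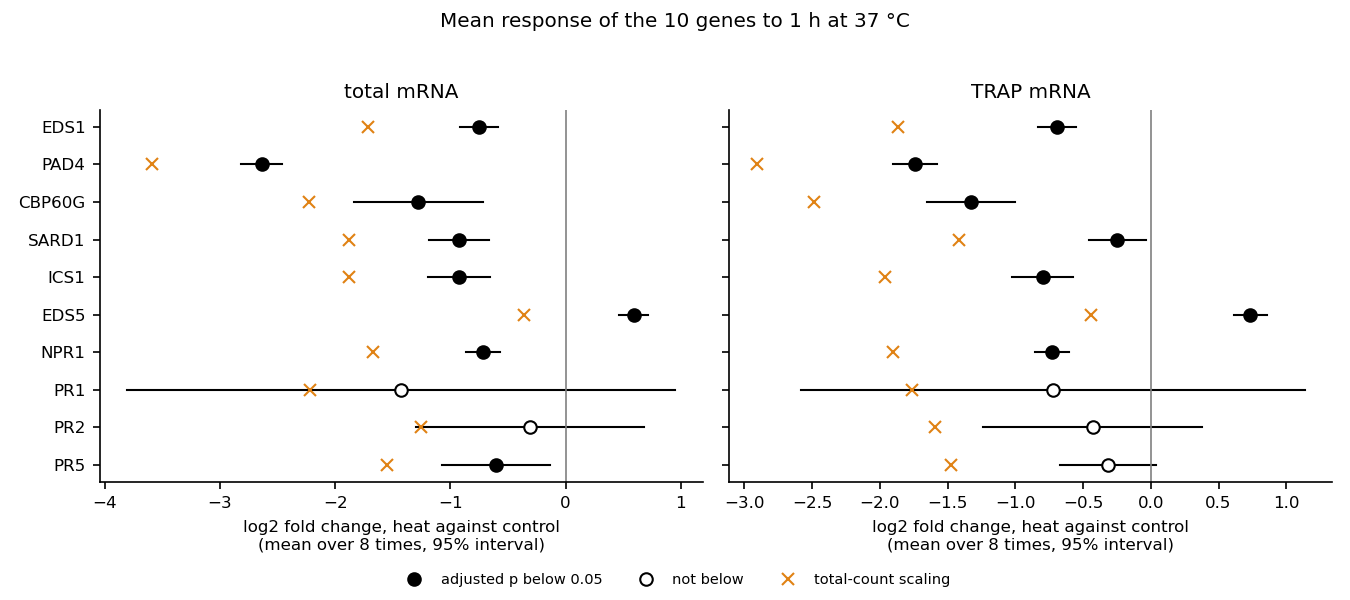
Mean heat effect over 8 times of day for the 10 genes in total and TRAP mRNA, as log2 fold change (x axis) with its 95% interval. Filled points have an adjusted p below 0.05, open points do not, and orange crosses show the value with libraries scaled to total counts. PAD4 lies furthest to the left in total mRNA at -2.64, and EDS5 is the called gene to the right of 0 (0.59 in total and 0.73 in TRAP mRNA), but lies at -0.36 and -0.44 under total-count scaling.

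PAD4 gave the clearest response. Its level in total mRNA was 11.1 to 25.2 CPM (median 15.7, n = 23) in controls and 0.853 to 7.70 CPM (median 2.33, n = 24) after heat. In TRAP mRNA it was 4.72 to 11.0 CPM (median 8.50, n = 23) and 1.11 to 3.42 CPM (median 2.51, n = 24). Every heated library of either kind lay below every control of that kind from ZT48 to ZT69. The mean change was -2.64 ± 0.09 (SE) in total mRNA (edgeR adjusted p = 9.3e-41), a 6.23-fold lower level, and -1.74 ± 0.08 in TRAP mRNA (adjusted p = 5.6e-28), 3.34-fold lower. Of all genes tested, 1.76% fell further in total mRNA and 6.05% in TRAP mRNA.

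PAD4 was lower at each of the 8 times in both kinds of RNA, a run of calls that 10.1% of genes shared in total mRNA and 13.5% in TRAP mRNA. The lowest fold change in total mRNA was at ZT60, where controls had 13.3, 11.8 and 12.3 CPM and heated libraries 1.52, 0.914 and 1.07 CPM (-3.33 ± 0.33). The smallest was at ZT69, where controls had 17.5, 13.5 and 17.5 CPM and heated libraries 7.70, 4.01 and 2.25 CPM (-1.89 ± 0.26), still with no overlap. Pooled over the 8 times, every heated library was below every control, which held for 4.02% (total) and 5.73% (TRAP) of all genes.

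EDS1, the partner of PAD4, changed less. Its level in total mRNA was 6.19 to 11.6 CPM (median 8.90) in controls and 3.14 to 8.09 CPM (median 5.21) after heat, and in TRAP mRNA 9.61 to 15.7 CPM (median 12.0) and 3.96 to 10.8 CPM (median 8.31). The groups overlapped when pooled over times. The mean change was -0.75 ± 0.08 in total mRNA (edgeR adjusted p = 3.9e-13) and -0.69 ± 0.07 in TRAP mRNA (adjusted p = 2.5e-13), and EDS1 was lower at 6 of the 8 times in each. ZT66 and ZT69 were the times without a call, with values of -0.06 ± 0.25 and -0.56 ± 0.26 in total mRNA. The near copy of EDS1, AT3G48080, was lower too, at -2.01 ± 0.32 in total mRNA.

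**Figure D2:**
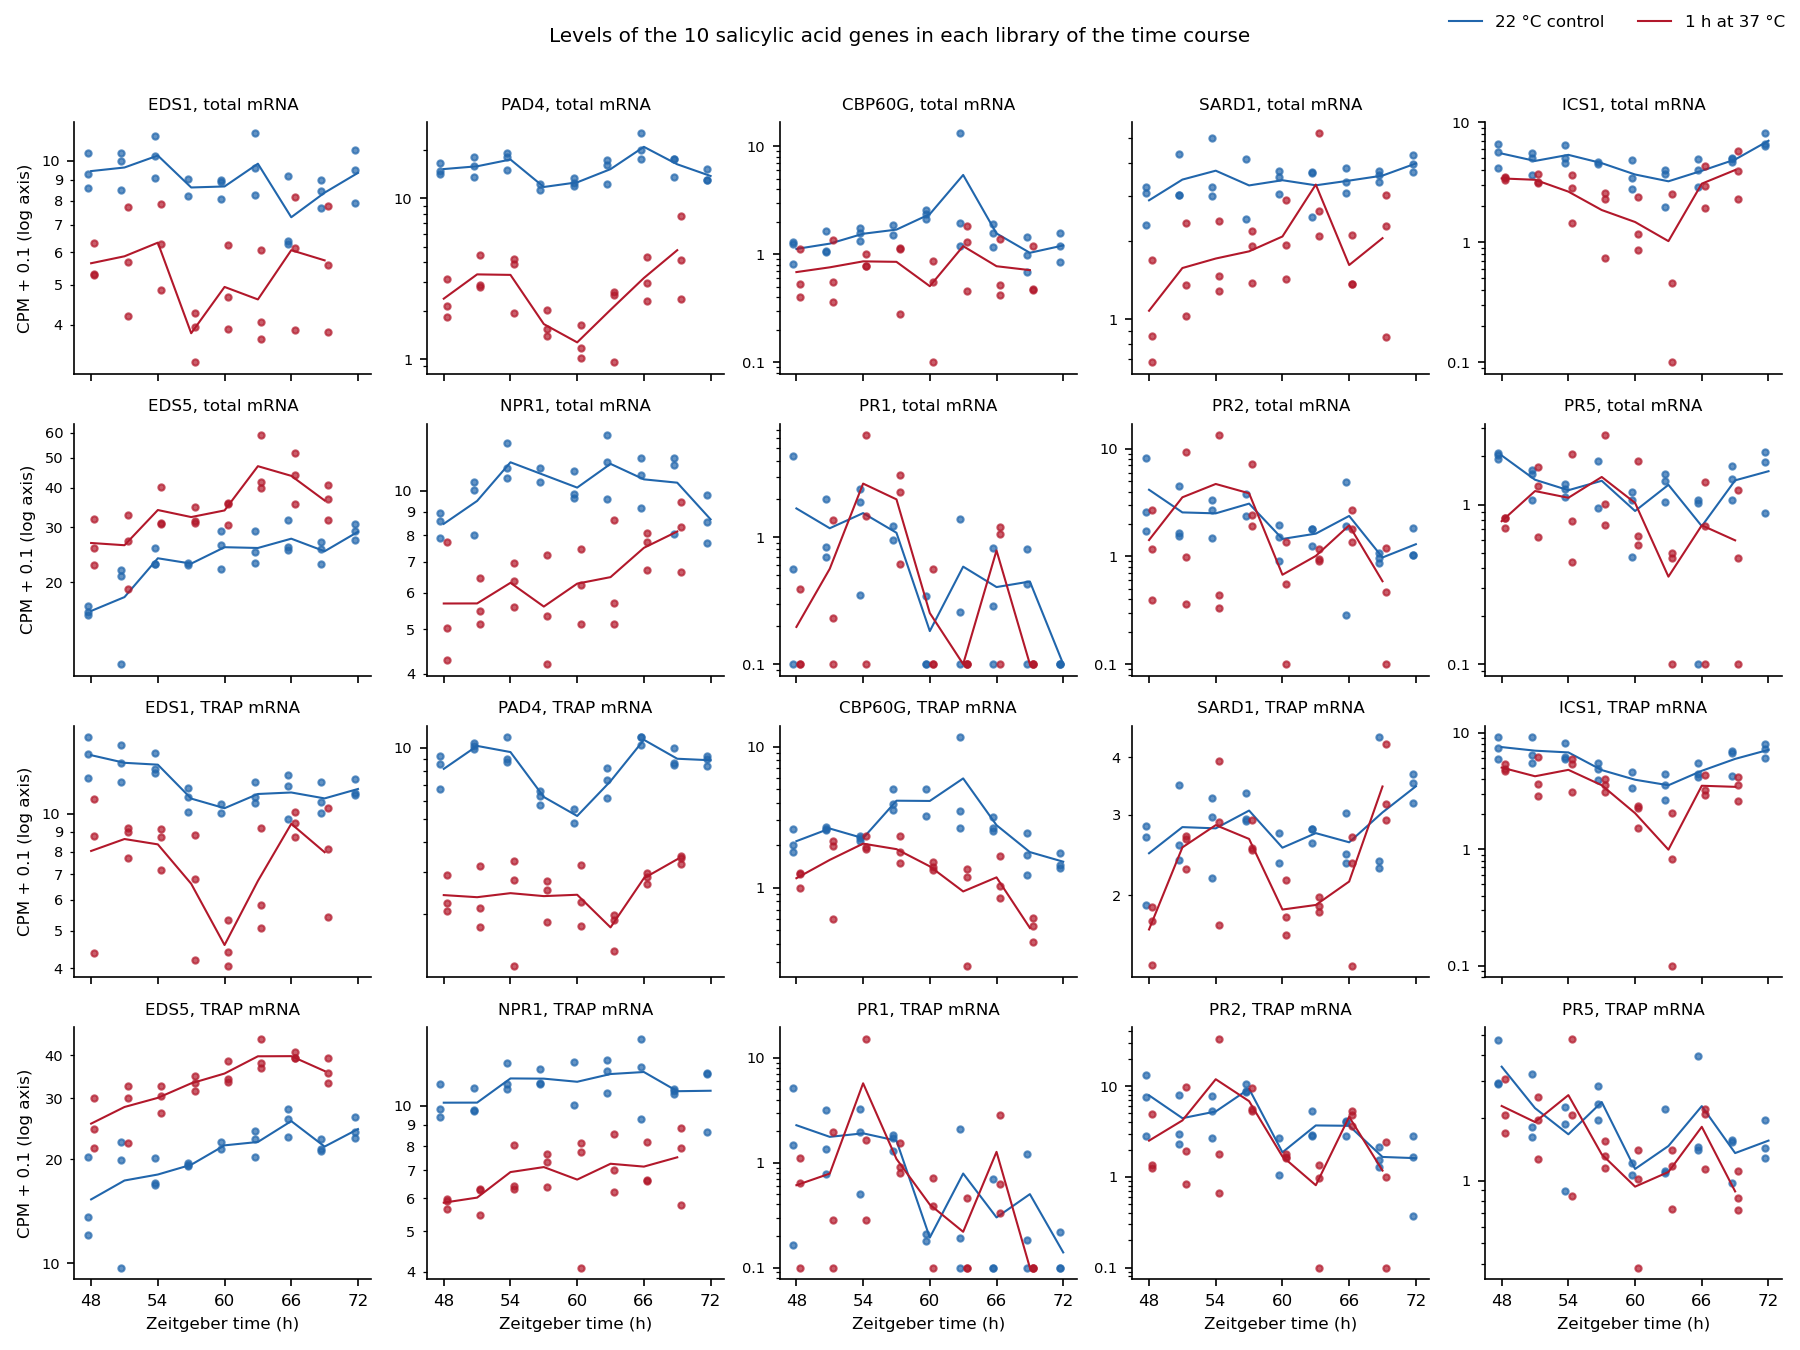
Level of each of the 10 genes by zeitgeber time (x axis, h) in total and TRAP mRNA, as CPM plus 0.1 on a log axis; points are libraries, lines join group means, blue is control and red is heat. The red and blue points of PAD4 stay apart at all 8 times. Those of EDS5 lie the other way up on this TMM scale (on total-count scaling its heated level is the lower), and those of PR1 and PR2 are spread over the same range.

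Among the transcription factors, CBP60G was low. In total mRNA its controls had 0.582 to 13.0 CPM (median 1.41), and heated libraries had 0 to 1.71 CPM (median 0.568), which is a median of 2.5 counts. The mean change was -1.28 ± 0.29 in total mRNA (edgeR adjusted p = 8.5e-05) and -1.33 ± 0.17 in TRAP mRNA (adjusted p = 1.5e-10). In total mRNA 2 single times were called, ZT60, where controls had 2.03, 2.26 and 2.46 CPM and heated libraries 0.762, 0.457 and 0 CPM, and ZT63. At ZT63 the control libraries had 1.84, 13.0 and 1.09 CPM and the heated libraries 0.359, 1.71 and 1.2 CPM, so 1 control stands far above the others. Without that library the ZT63 change went from -2.48 ± 0.76 to -0.66 (adjusted p = 0.48). The same control was high in TRAP mRNA (11.6 CPM beside 2.53 and 3.42), where 5 of 8 times were called.

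SARD1 differed between the kinds of RNA. In total mRNA it had 2.22 to 4.90 CPM (median 3.28) in controls and 0.581 to 5.12 CPM (median 1.70) after heat. In TRAP mRNA it had 1.81 to 4.33 CPM (median 2.63) and 1.3 to 4.18 CPM (median 2.22), so the arms overlap over nearly the whole range. The mean change was -0.93 ± 0.13 in total mRNA (edgeR adjusted p = 2.8e-09) and -0.25 ± 0.11 in TRAP mRNA (adjusted p = 0.029). That TRAP call was lost without replicate 1 (adjusted p = 0.086), without replicate 2 (0.22), without the ZT54 heat library numbered 2 (0.053) and with libraries thinned to the smallest depth (0.20). SARD1 was lower at 5 of 8 times in total mRNA, most at ZT48, where controls had 3.15, 2.97 and 2.22 CPM and heated libraries 0.763, 0.581 and 1.59 CPM (-1.47 ± 0.36). In TRAP mRNA it was called at 0 of 8 by edgeR on the main scale. Under total-count scaling SARD1 was called in TRAP mRNA at ZT48 (-1.81, edgeR adjusted p = 1.1e-07) and ZT51 (-1.37, adjusted p = 4.1e-06), among other times. The median over all genes there was -1.26 and -1.28. GIP2, whose exons overlap it, was also lower, at -1.54 ± 0.16 in total mRNA and -0.96 ± 0.15 in TRAP mRNA, and its part in the SARD1 values was not tested.

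The genes of synthesis and export moved in opposite directions on the main scale. ICS1 had 1.84 to 6.47 CPM (median 4.51) in controls and 0 to 5.62 CPM (median 2.59) after heat in total mRNA. It was lower, at -0.92 ± 0.14 in total mRNA (edgeR adjusted p = 5.9e-09) and at -0.80 ± 0.11 in TRAP mRNA (adjusted p = 7.4e-09), and was called at 5 of 8 times in each. The lowest values were at ZT63, where total mRNA controls had 1.84, 3.90 and 3.59 CPM and heated libraries 0.359, 0 and 2.40 CPM (-1.49 ± 0.57). TRAP controls had 2.53, 4.35 and 3.42 CPM and heated libraries 0, 1.95 and 0.718 CPM (-1.83 ± 0.45).

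EDS5 was the most abundant member per length. It had 10.9 to 31.4 CPM (median 23.0) in total mRNA controls and 18.9 to 58.8 CPM (median 33.6) after heat, and 9.63 to 27.8 CPM (median 20.2) against 21.4 to 44.5 CPM (median 33.2) in TRAP mRNA. Its mean change was 0.59 ± 0.07 in total mRNA (edgeR adjusted p = 2.2e-11), 1.51-fold, and 0.73 ± 0.06 in TRAP mRNA (adjusted p = 9.5e-15), 1.66-fold. With libraries scaled to total counts it was -0.36 and -0.44, so EDS5 rose relative to the typical gene and not as a share of all reads. On the main scale it was higher at 7 of 8 times in total mRNA (0.39 ± 0.18 at ZT60 was not called) and at all 8 in TRAP mRNA, but scaled to total counts it was below 0 at all of them except ZT63 in total mRNA (0.02). The largest single value was at ZT63 in total mRNA, with controls at 29.0, 23.0 and 24.9 CPM and heated libraries at 39.9, 41.8 and 58.8 CPM (0.88 ± 0.19 on the main scale). AT4G39040, which overlaps EDS5 on the other strand, had 0.59 ± 0.04 in total and 0.59 ± 0.03 in TRAP mRNA on the main scale and also turned negative under total-count scaling (-0.37 and -0.59). Its part in the EDS5 values was not tested.

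**Figure D3:**
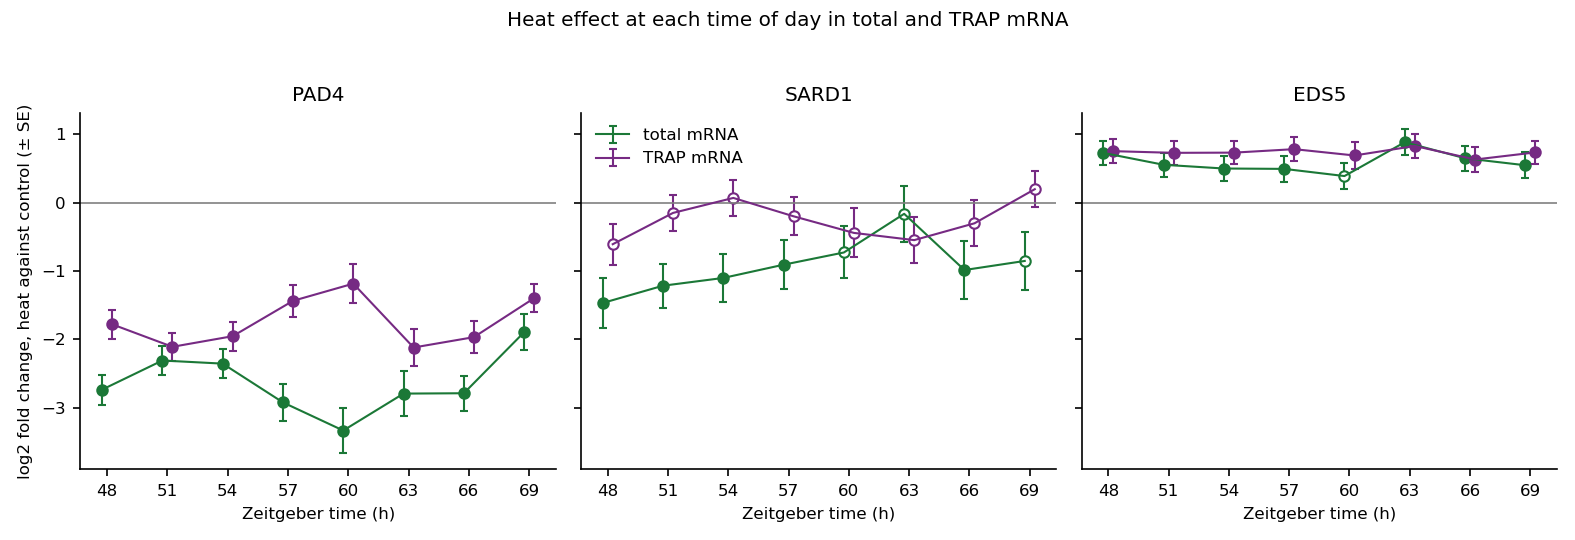
Heat effect at each zeitgeber time (x axis, h) for PAD4, SARD1 and EDS5 as log2 fold change ± SE, green for total and purple for TRAP mRNA, filled where the adjusted p was below 0.05. PAD4 is below 0 throughout. On this TMM scale SARD1 is called lower in total mRNA at 5 times and at none in TRAP mRNA. EDS5 is above 0 on this TMM scale and below 0 with total-count scaling, except at ZT63 in total mRNA.

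NPR1 had 7.79 to 13.1 CPM (median 10.4) in total mRNA controls and 4.10 to 9.35 CPM (median 6.31) after heat. In TRAP mRNA it had 9.19 to 14.4 CPM (median 10.9) and 3.99 to 8.74 CPM (median 6.41), with every heated library below every control of ZT48 to ZT69. It was lower, at -0.72 ± 0.07 in total mRNA (edgeR adjusted p = 2.9e-14) and at -0.73 ± 0.06 in TRAP mRNA (adjusted p = 6.5e-16). The fold changes at single times kept to a narrow range in TRAP mRNA, from -0.80 ± 0.18 at ZT48 to -0.56 ± 0.17 at ZT69, and all 8 were called. In total mRNA 7 of 8 were called, from -0.99 ± 0.20 at ZT57, with controls at 11.1 and 10.3 CPM and heated libraries at 5.25, 4.10 and 7.16 CPM. ZT69 was the exception at -0.42 ± 0.23.

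The 3 PR genes were near the limit of detection in these unchallenged seedlings. PR1 had no read in 6 of 23 total mRNA controls and in 13 of 24 heated libraries. PR2 had a median of 1.71 CPM in controls and 1.07 CPM after heat, with 13.3 CPM in 1 library, heat at ZT54 numbered 2. The total and TRAP libraries of that time, treatment and number were high in PR1 too, with 6.25 CPM in total mRNA and 15.1 in TRAP mRNA, where PR2 reached 33.2 CPM. The other heated libraries at ZT54 had 1.37 and 0 CPM of PR1 and 0.229 and 0.339 CPM of PR2 in total mRNA. The mean change was -1.42 ± 1.21 for PR1 (edgeR adjusted p = 0.28) and -0.31 ± 0.51 for PR2 (adjusted p = 0.58) in total mRNA. In TRAP mRNA the values were -0.72 ± 0.95 (adjusted p = 0.48) and -0.43 ± 0.41 (adjusted p = 0.33). Without both ZT54 heat libraries numbered 2, PR2 was at -0.86 in TRAP mRNA (adjusted p = 0.015).

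PR5 was lower, at -0.60 ± 0.24 in total mRNA (edgeR adjusted p = 0.018), a call that was lost without replicate 2 (-0.51, adjusted p = 0.107). In TRAP mRNA it had -0.32 ± 0.18 (adjusted p = 0.10), which became -0.42 with an adjusted p of 0.023 without the ZT54 heat libraries numbered 2. Its 1 call at a single time was at ZT48 in total mRNA, where controls had 2.01, 1.95 and 1.83 CPM and heated libraries 0.611, 0.726 and 0.722 CPM (-1.46 ± 0.49, adjusted p = 0.0085). The call was lost without replicate 1 (adjusted p = 0.065). PR1 and PR2 were called at no time by edgeR.

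Per kilobase of exon, and if reads fall evenly along a message, which the labels do not say, median control levels differed between genes. In total mRNA they ran from 0.514 CPM per kb for PR1 and 0.612 for CBP60G through 1.04 for PR5, 1.16 for PR2, 1.37 for SARD1, 2.07 for ICS1, 3.49 for EDS1 and 3.96 for NPR1 to 6.95 for PAD4 and 10.2 for EDS5. After heat, PAD4 stood at 1.03 CPM per kb, below EDS1 at 2.04 and NPR1 at 2.42, and ICS1 at 1.19, and EDS5 at 14.9. Thus PAD4, the next after EDS5 at 22 °C, was the fifth of the 10 after heat.

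The heat effect was compared across the 8 times with an F test of 7 degrees of freedom. By edgeR 0 of 10 members passed in either kind of RNA, where 3.61% of genes passed in total mRNA and 7.04% in TRAP mRNA. At an unadjusted p below 0.05 there were 0 members in total and 1 in TRAP mRNA, and DESeq2 called 0 in each. The lowest adjusted p was that of CBP60G in TRAP mRNA, 0.095, with a range of 0.058 to 0.81 over its alternatives. Over the 80 pairs of gene and time, 41 were called in total mRNA and 40 in TRAP mRNA. The share of all genes called from ZT48 to ZT69 was 57.8%, 56.5%, 51.5%, 50.2%, 47.6%, 44.1%, 44% and 42.8% in total mRNA. It was 60.2%, 59.6%, 58.6%, 56.6%, 50.4%, 56.3%, 51.3% and 55.3% in TRAP mRNA, so the members are near the background here too.

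In the controls alone, a rhythm with a 24 h period was called for 2 members in total mRNA, CBP60G and ICS1, and for 5 in TRAP mRNA, where 51.3% and 61.8% of all genes were called. The controls span a single cycle, ZT48 to ZT72, so the fit does not tell a rhythm from a change that does not recur. ICS1 peaked 1.92 h after ZT48 on a 24 h scale in total mRNA with an amplitude of 0.40 log2 units (edgeR adjusted p = 0.00059) and at 1.93 h in TRAP mRNA with 0.52 (adjusted p = 1.6e-06). CBP60G peaked in the opposite part of the day, at 13.8 h in total mRNA with an amplitude of 0.93 (adjusted p = 0.0021) and at 12.5 h in TRAP mRNA with 0.74 (adjusted p = 0.00015). Its amplitude in total mRNA was 0.49 without the ZT63 control numbered 2. PAD4 (0.27, peak at 23.4 h), EDS1 (0.16, peak at 2.65 h) and EDS5 (0.24, peak at 16.6 h) were called in TRAP mRNA alone, and the difference between kinds of RNA was not tested. Depth was also higher in the first part of the series, where TRAP libraries had a median total of 9398937 up to ZT57 and of 5902330.5 from ZT60 on. With a step between these blocks in the fit EDS1 (adjusted p = 0.11) and EDS5 (adjusted p = 0.67) were no longer called, and PR2 (0.027) and PR5 (0.014) were. EDS1 and EDS5 also lost the call without replicate 1 (adjusted p = 0.11 and 0.17) or 2 (0.16 and 0.057). PAD4 lost its call without replicate 2 (adjusted p = 0.16) or 3 (0.076). Under total-count scaling PAD4 (adjusted p = 0.062) and EDS1 (0.20) were not called and NPR1 (0.0016) was.

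In one fit over both kinds of RNA, the heat effect differed between TRAP and total mRNA for 2 members, PAD4 and SARD1, where 35.6% of genes differed. For PAD4 the fall was smaller on ribosomes by 0.92 ± 0.14 log2 units (edgeR adjusted p = 4.6e-08), and every alternative kept the call, with 0.69 to 1.17. For SARD1 the difference was 0.70 ± 0.17 (adjusted p = 0.00054), which without replicate 3 was 0.51 (adjusted p = 0.079). With total and TRAP libraries of the same number as a block, EDS5 was called too, at 0.14 (adjusted p = 0.046). The overlapping gene GIP2 differed in the same direction, by 0.60 ± 0.24 (adjusted p = 0.037).

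The ratio of TRAP to total mRNA at 22 °C also set PAD4 apart. In controls PAD4 was lower in TRAP than in total mRNA, at -1.13 ± 0.06 (edgeR adjusted p = 5e-35), SARD1 at -0.49 ± 0.10 and EDS5 at -0.39 ± 0.06. CBP60G was higher by 0.60 ± 0.17 and EDS1 by 0.23 ± 0.06. PR2 (0.79 ± 0.35, adjusted p = 0.037) and PR5 (0.36 ± 0.17, adjusted p = 0.043) were called but lost the call without the ZT63 control libraries numbered 2 (adjusted p = 0.067 and 0.089) and with DESeq2 (0.055 and 0.069). Under total-count scaling SARD1 at -0.20 (adjusted p = 0.064) and EDS5 at -0.10 (0.19) lost the call, while ICS1 at 0.40 and NPR1 at 0.21 gained one. These 7 calls compare with 76.2% of all genes. In heated seedlings 3 members were called (72.8% of all genes): EDS5 at -0.23 ± 0.07, EDS1 at 0.31 ± 0.09 and PR5 at 0.67 ± 0.26. PAD4 was at -0.21 ± 0.13 (adjusted p = 0.15) there. The PR5 call was lost without replicate 2 (adjusted p = 0.066), without replicate 3 (0.058) and with thinned libraries (0.14). With the block by library pair CBP60G at 0.56 (adjusted p = 0.036) and PR2 at 0.69 (0.0022) were called as well.

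After seedlings had returned to 22 °C the total mRNA level of PAD4 was back within the range of the controls by 1 h. At 0 h, controls had 32.6, 34.7 and 25.4 CPM of PAD4 in total mRNA and stressed libraries 9.98, 8.66 and 9.17 CPM (-1.73 ± 0.19, edgeR adjusted p = 1.1e-09). At 1 h, controls had 24.3, 27.7 and 36.0 CPM and stressed libraries 33.6, 24.9 and 28.4 CPM (-0.01 ± 0.16). The groups did not overlap at 0 h, where 28.5% of all genes had every stressed library below every control, and did at 1 h. In total mRNA the values stayed together at 3 h (-0.02 ± 0.17) and 6 h (-0.01 ± 0.17). In TRAP mRNA, controls had 14.2, 15.8 and 14.9 CPM and stressed libraries 6.60, 4.51 and 6.78 CPM at 0 h (-1.32 ± 0.20, adjusted p = 5.8e-06). The values were 13.2, 11.3 and 15.7 against 15.5, 13.1 and 16.3 CPM at 1 h (0.18 ± 0.17). Later TRAP values of PAD4 were -0.07 at 3 h and -0.44 at 6 h, neither called by edgeR. At 6 h every stressed TRAP library lay below every control, as for 10.4% of all genes. The change of the effect from 0 to 1 h was itself called for PAD4, by 1.73 ± 0.25 in total mRNA (adjusted p = 1.3e-06) and by 1.50 ± 0.27 in TRAP mRNA (adjusted p = 8.2e-05).

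**Figure D4:**
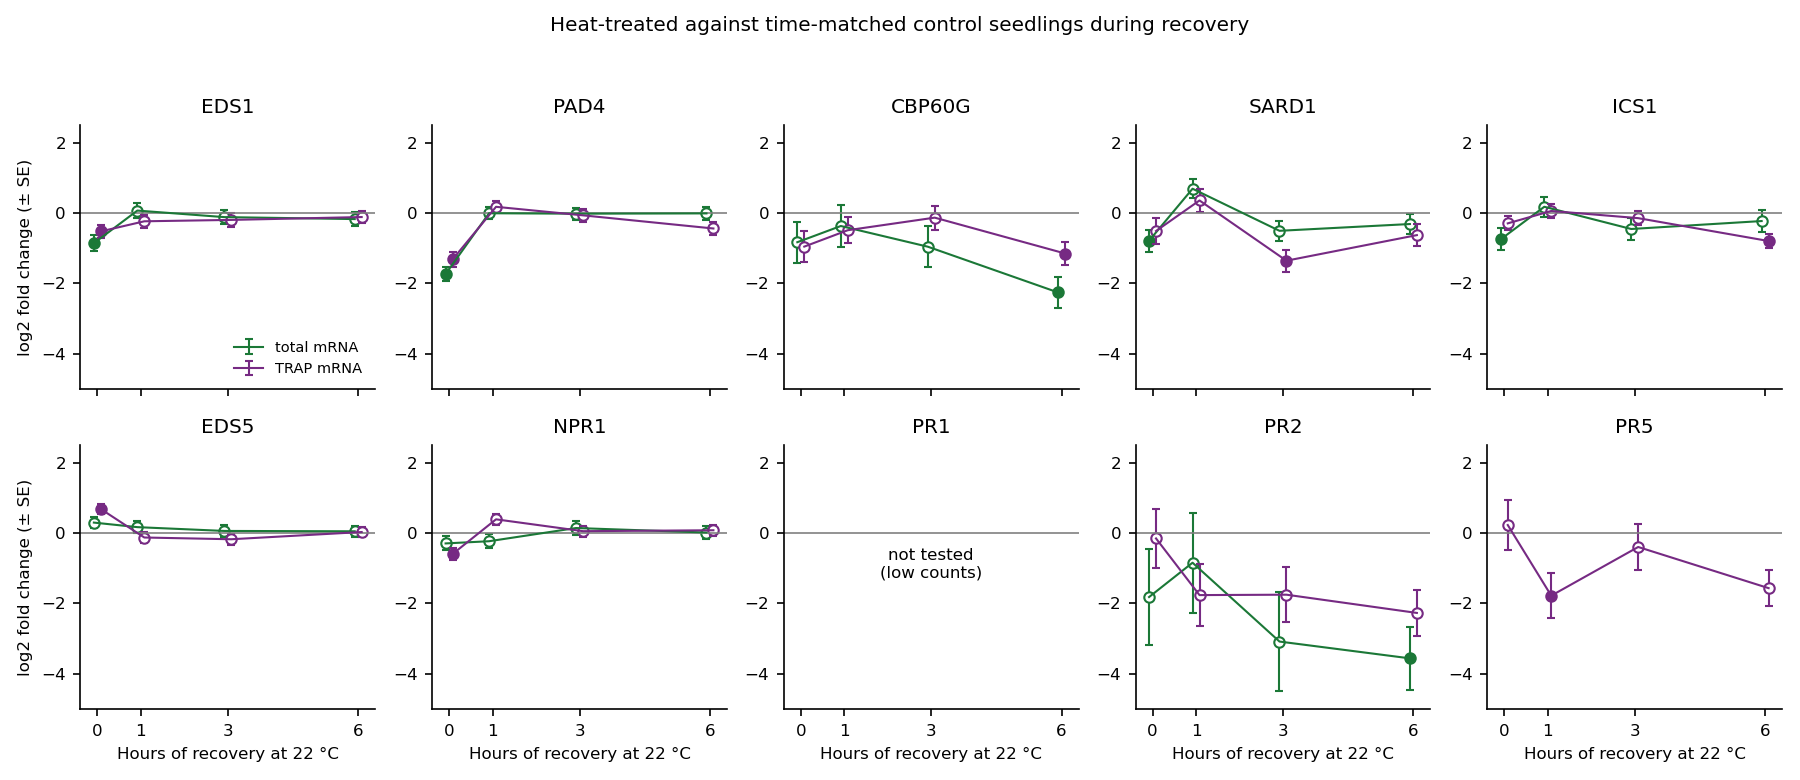
Effect of the earlier heat at 0, 1, 3 and 6 h of recovery (x axis, h) for the 10 genes, as log2 fold change against controls of the same time ± SE. Filled points had an adjusted p below 0.05, PR1 was not tested and PR5 was tested in TRAP mRNA alone. PAD4 goes from -1.73 at 0 h to -0.01 at 1 h in total mRNA. EDS5 is above 0 at 0 h in TRAP mRNA at 0.68 (at -0.19 with total-count scaling), and the low points of CBP60G and PR2 at 6 h rest on 2 control libraries.

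At 0 h, 4 of the 8 members tested in total mRNA were called, all lower, beside 46.1% of all genes: PAD4, EDS1 at -0.86 ± 0.23 (edgeR adjusted p = 0.0021), SARD1 at -0.79 ± 0.31 (0.035) and ICS1 at -0.75 ± 0.31 (0.048). The last pair of calls is fragile: SARD1 was not called without any 1 of the replicate numbers, and ICS1 had an adjusted p of 0.064 by DESeq2. EDS1 had 8.83, 12.6 and 12.9 CPM in controls and 6.13, 6.74 and 5.95 CPM in stressed libraries. Every stressed library thus lay below every control, as for 28.5% of all genes. Without replicate 3 EDS1 had an adjusted p of 0.052. In TRAP mRNA 4 of 9 were called beside 49.9% of genes. These were PAD4, EDS1 at -0.52 ± 0.19 (adjusted p = 0.027, and 0.055 and 0.25 without replicates 1 and 2), NPR1 at -0.60 ± 0.17 (0.0058, and 0.055 without replicate 2) and EDS5 at 0.68 ± 0.15 (0.00059), which turned to -0.19 with libraries scaled to total counts.

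EDS5 had 29.7, 26.7 and 27.2 CPM in TRAP controls at 0 h and 45.2, 47.1 and 41.8 CPM in stressed libraries, and 30.1, 32.6 and 32.4 against 26.7, 29.3 and 31.2 CPM at 1 h. NPR1 had 15.5, 17.7 and 15.7 CPM against 11.1, 11.0 and 10.2 CPM at 0 h in TRAP mRNA. It had 12.7, 15 and 14.8 CPM against 19.3, 16.8 and 19.2 CPM at 1 h, so that the stressed libraries went from below all controls to above all of them. At 0 h, 32.9% of all genes had every stressed TRAP library below every control. The share above every control at 1 h was not taken. The 1 h value of NPR1, 0.39 ± 0.16, was not called (edgeR adjusted p = 0.074), but the change from 0 to 1 h was, at 0.99 ± 0.23 (adjusted p = 0.0016). The change was -0.81 ± 0.22 for EDS5 in TRAP mRNA (adjusted p = 0.0041, and 0.056 without replicate 2), and 0.18 with libraries scaled to total counts. In total mRNA it was 1.48 ± 0.41 for SARD1 (adjusted p = 0.0058) and 0.93 ± 0.31 for EDS1 (adjusted p = 0.021). The SARD1 call was lost without replicate 2 (adjusted p = 0.055) and with thinned libraries (0.12), and the EDS1 call without replicate 3 (0.22). From 0 to 1 h the effect changed for 31.3% (total) and 38.7% (TRAP) of all genes. Over all 4 times of recovery, an F test passed PAD4 and SARD1 in total mRNA (2 of 8, beside 41.9% of all genes) and PAD4, EDS5, NPR1 and SARD1 in TRAP mRNA (4 of 9, beside 51.1%). PAD4 passed under every alternative run. SARD1 failed in total mRNA without replicate 1 (adjusted p = 0.096) or 2 (0.069) or thinned (0.25), and in TRAP mRNA without replicate 1 (0.14) or 3 (0.11). In TRAP mRNA EDS5 failed without replicate 3 (0.069) and under total-count scaling (0.59), and NPR1 without replicate 1 (0.057).

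Beyond 0 h, few members were called against their controls. In total mRNA edgeR called 0 of 8 at 1 h (19.4% of all genes) and 0 at 3 h (1.12%), with 1 at an unadjusted p below 0.05 at each and 0 by DESeq2. SARD1 at 1 h had 4.12, 3.74 and 6.03 CPM in controls and 7.35, 6.66 and 8.05 CPM in stressed libraries, all above the controls, with 0.69 ± 0.27 (adjusted p = 0.071). In TRAP mRNA 1 was called at 1 h (24.6% of genes), PR5 at -1.78 ± 0.64 (adjusted p = 0.044), with 1.14, 2.75 and 0.959 CPM in controls and 0.492, 0 and 0.815 CPM in stressed libraries. That call was lost without any 1 of the replicate numbers. At 3 h 1 was called (6.46% of genes), SARD1 at -1.35 ± 0.31 (adjusted p = 0.011), with 14.0, 4.72 and 6.99 CPM in controls and 3.72, 3.18 and 3.34 CPM in stressed libraries. Without replicate 1, which holds the high control, it was -0.82 (adjusted p = 0.30), and without replicate 3 the adjusted p was 0.096. PR2, which rests on few reads, was low without a call. In total mRNA it was at -3.08 at 3 h, where 0.0195% of genes fell further. Every stressed library there lay below every control, as for 8.41% of all genes. In TRAP mRNA PR2 was at -1.76 at 1 h, also without overlap (24.2% of all genes), and at -1.75 at 3 h, with overlap.

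At 6 h the calls of CBP60G and PR2 rest on 2 of the 3 control libraries, numbers 1 and 3. CBP60G had 11.7, 2.02 and 10.1 CPM in total mRNA controls and 1.07, 2.25 and 1.46 CPM in stressed libraries, and PR2 had 4.88, 0 and 8.54 CPM against 0.764, 0.133 and 0.163 CPM. PR1 had 5.98, 0.368 and 2.47 CPM in controls there and 10.7, 0.662 and 5.16 CPM in TRAP controls, and PR5 had 4.21, 0 and 2.25 CPM and 5.27, 1.06 and 4.46 CPM. Controls 1 and 3 were thus high in CBP60G and all 3 PR genes in both kinds of RNA, and control 2 was not. CBP60G was called at -2.26 ± 0.43 in total mRNA (edgeR adjusted p = 0.0015) and -1.15 ± 0.34 in TRAP mRNA (adjusted p = 0.043). PR2 was called at -3.56 ± 0.90 in total mRNA (adjusted p = 0.019) and ICS1 at -0.80 ± 0.20 in TRAP mRNA (adjusted p = 0.021). These 2 calls in each kind of RNA stand beside 6.32% and 5.39% of all genes. Without controls 1 and 3, CBP60G was at -0.32 and -0.33, ICS1 at -0.48 and PR2, against a control without a read, at 4.06. That leaves 1 control, so whether the calls hold cannot be decided. For ICS1 in TRAP mRNA every stressed library lay below every control, number 2 included, as was so for 10.4% of all genes.

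The difference between TRAP and total mRNA in the effect of recovery was called for 0 of the 40 pairs of gene and time by edgeR (1.99%, 0.014%, 0% and 0% of all genes at 0, 1, 3 and 6 h). There was 1 pair at an unadjusted p below 0.05, at 1 h, and 0 by DESeq2.

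ZT54 was sampled in both experiments. PAD4 in total mRNA controls was 30.9 ± 4.85 CPM (SD, n = 3) in the recovery experiment and 17.3 ± 2.21 CPM (SD, n = 3) in the time course, and after heat 9.27 ± 0.66 and 3.24 ± 1.23 CPM. The experiments were deposited as separate tables, and TMM scaling and tests were run within each. Their CPM values are therefore not on a common scale. Every one of these total mRNA controls had a higher scaling factor in the time course than in the recovery experiment, which lowers its CPM. The size of the difference in PAD4 level between experiments cannot be read from these values and was not tested.

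The other 45 genes listed for the pathway, of which 39 were tested in each kind of RNA, went both ways after heat. In total mRNA 35 were called, 14 higher and 21 lower, with a median of -0.42, and in TRAP mRNA 37, 17 higher and 20 lower, with a median of -0.28. As for the members, these counts and those by role below stand beside 80.7% and 83.6% of all genes called, with 43.9% and 45.5% of all genes lower. Under total-count scaling all those called lower stayed below 0, but 4 of the 14 and 4 of the 17 called higher stayed above 0. Of 7 genes of synthesis, 6 were lower in each kind of RNA, with medians of -2.05 and -1.96. PAL1, the first enzyme of the phenylpropanoid route, fell from 37.5 to 88.0 CPM in controls (median 66) to 4.11 to 12.0 CPM (median 8.39) in total mRNA, without overlap (-2.83 ± 0.06), and had -3.12 ± 0.05 in TRAP mRNA. PBS3, which joins isochorismate to glutamate, was lower, at -3.48 ± 0.59 in total mRNA, with a median of 0 CPM after heat.

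Of the receptors and their partners, 11 of 11 tested were called in total mRNA, 5 higher and 6 lower, and 12 of 12 in TRAP mRNA, 6 higher and 6 lower. NPR3 and NPR4, salicylic acid receptors that act as repressors of the response, were higher in total mRNA. NPR3 went from 3.22 to 7.72 CPM in controls (median 4.90) to 9.52 to 24.7 CPM (median 16.6) without overlap (1.67 ± 0.08). NPR4 went from 6.36 to 12.6 CPM (median 8.0) to 15.9 to 36.8 CPM (median 24.6) (1.56 ± 0.07). Both stayed above 0 in total mRNA under total-count scaling, at 0.71 and 0.60. In TRAP mRNA they were at 0.51 ± 0.07 and 0.52 ± 0.05, but at -0.66 and -0.65 under total-count scaling. The heat effect in TRAP was below that in total mRNA, at -1.14 ± 0.10 for NPR3 and -1.01 ± 0.09 for NPR4. NIMIN2, which binds NPR1, was the lowest of all at -3.88 ± 0.37 in total and -3.87 ± 0.46 in TRAP mRNA, and NIMIN3 was higher, at 1.03 ± 0.05 and 1.61 ± 0.05 (0.07 and 0.44 under total-count scaling).

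Of 11 genes of upstream signalling, 9 were called in total mRNA (3 higher and 6 lower) and 10 in TRAP mRNA (4 and 6). NDR1, a membrane protein required by a class of immune receptors, was lower, at -2.66 ± 0.23 in TRAP mRNA. Of the 4 salicylic acid-responsive WRKY genes tested, 3 were called in total mRNA (2 higher and 1 lower) and 4 in TRAP mRNA (3 and 1). WRKY18 in TRAP mRNA was 1.47 to 3.67 CPM (median 2.72) in controls and 4.56 to 23.6 CPM (median 8.76) after heat, without overlap (1.79 ± 0.12, and 0.62 under total-count scaling). NIMIN1 was at 1.72 ± 0.42 in TRAP mRNA and 0.68, not called, under total-count scaling. Genes of breakdown and conjugation were called in 4 of 5 cases in total mRNA (3 higher and 1 lower) and 4 of 4 in TRAP mRNA (3 and 1). Of the 3 pipecolate genes 1 was tested in total mRNA and was lower.

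During recovery, 22 of the 36 pathway genes tested were called at 0 h in total mRNA (10 higher and 12 lower) and 27 of 38 in TRAP mRNA (14 and 13), beside 46.1% and 49.9% of all genes. NIMIN2 was again low at -2.47 ± 0.57 in total and -2.24 ± 0.85 in TRAP mRNA. NDR1 was at -1.93 ± 0.63 in total mRNA, PAL1 at -2.13 ± 0.16 in TRAP mRNA and NPR3 at 1.83 ± 0.20 in total mRNA (1.09 under total-count scaling). At 1 h 8 were called in each (19.4% and 24.6% of all genes), 7 of them higher in total mRNA and 6 in TRAP mRNA. DLO1 and DMR6, which hydroxylate salicylic acid, were among these, at 1.98 ± 0.64 and 0.92 ± 0.20 in total and 2.15 ± 0.69 and 1.28 ± 0.16 in TRAP mRNA. UGT76B1, which glycosylates it, was at 1.11 ± 0.27 in total mRNA and ADR1, a helper immune receptor, at -0.80 ± 0.26 in TRAP mRNA. All those higher at 1 h stayed above 0 under total-count scaling.

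At 3 h edgeR called 0 of the pathway genes in total mRNA (1.12% of all genes), with 3 at an unadjusted p below 0.05, and 1 in TRAP mRNA (6.46%), PAL1 at 0.54 ± 0.15. At 6 h 5 were called in each (6.32% and 5.39% of all genes), 2 higher and 3 lower. The lower ones were DLO1, WRKY70 and NIMIN2 in total mRNA (-3.01 ± 0.70, -2.59 ± 0.51 and -1.28 ± 0.40) and DLO1, WRKY70 and DMR6 in TRAP mRNA (-2.42 ± 0.69, -1.69 ± 0.36 and -1.07 ± 0.18). WRKY70 had 9.31, 2.02 and 13.7 CPM in total mRNA controls and 1.53, 1.19 and 1.3 CPM in stressed libraries, the same 2 high controls as for CBP60G and the PR genes. Without those 2 control libraries 1 control is left at 6 h, and whether these calls hold cannot be decided. ICS2 was at 0.94 there in total mRNA.

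The likeness of profiles was taken as Pearson's r of log2(CPM + 1) over the 17 group means of total mRNA in the time course, as a description, since the means share libraries and scaling. PAD4 was most like AHL20 and AT4G40030 (r = 0.983 each) and AT2G37710 (0.980), and among members like EDS1 (0.921) and NPR1 (0.910). NPR1 was most like AT1G04503 (0.979), EDS1 like HAT9 (0.961), EDS5 like AT4G32930 (0.963) and ICS1 like NAC083 (0.941). PR5 was most like AT2G23520 (0.922), CBP60G like AT5G44585 (0.918), PR1 like AT1G25083 (0.879) and PR2 like AT5G22780 (0.857). SARD1 was most like GIP2 (0.957), whose exons overlap those of SARD1, so that reads of the pair cannot be told apart. EDS5 ran against EDS1 (-0.717) and PR5 (-0.772) on the TMM scale, where its heat effect was above 0. Under total-count scaling that effect was below 0, and the correlations were not taken there. PR1 and PR2 were like each other (0.816) and unlike PAD4 (0.081 and 0.283).

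PR1 and PR2 differed between total mRNA libraries of a group, and these differences recurred in the TRAP library of the same group and number. Over 73 such pairs, as deviations from the group mean of log2(CPM + 0.5), total and TRAP mRNA of PR1 had r = 0.871 and rho = 0.742, and those of PR2 r = 0.793 and rho = 0.726. CPM in these correlations was relative to the total count, without TMM scaling. In a two-sided permutation test within groups (100000 draws, 10 genes) both had p = 1e-05 for r, the smallest the draws can give, and 5e-05 after Benjamini-Hochberg adjustment. Without the 2 most distant pairs r was 0.844 and 0.715. Within the time course r was 0.912 and 0.757 (49 pairs), and within recovery 0.737 and 0.892 (24 pairs). EDS5 had r = 0.450 (adjusted p = 0.057), the other 7 had an adjusted p of at least 0.16, and the median over 20070 genes was 0.161, with 5.42% above 0.5. The pairs with high PR1 and PR2 included a heated pair at ZT54 and control pairs at 6 h of recovery, as given above.

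**Figure D5:**
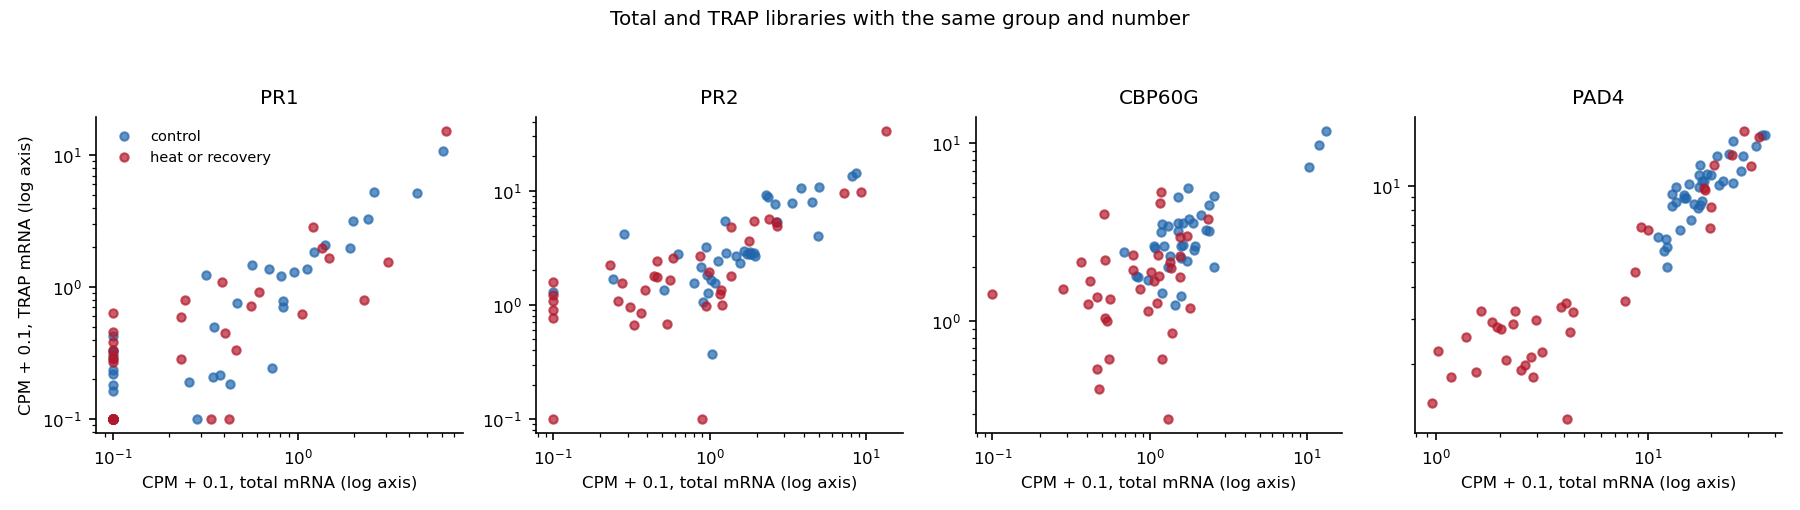
Level in the total mRNA library (x axis) and the TRAP library (y axis) of the same group and number for PR1, PR2, CBP60G and PAD4, as CPM plus 0.1 on log axes. Each point is a pair of libraries, blue for control and red for heat or recovery. PR1 and PR2 points follow a line through both colours (r of deviations from group means 0.871 and 0.793, on total-count CPM without TMM). PAD4 points of the time course part by colour. Red PAD4 points from 1, 3 and 6 h of recovery are not set apart from the blue ones in total mRNA.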

How the data were processed

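The authors deposited raw counts per gene in a table for the time course (100 libraries) and a table for recovery (48 libraries). Per the labels' protocols, polyadenylated RNA was taken with oligo(dT) beads and amplified by 12 cycles of PCR. Molecular identifiers are not mentioned, so a count is a read. The submitters' processing notes name cutadapt, FastQC, HISAT2 2.2.0 and the TAIR10 genome. How reads were counted, with which annotation and strand setting, is not given in the sources used here. Coordinates, overlaps and promoter windows are those of RefSeq TAIR10.1.

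Tests used edgeR 4.0.16 in R 4.3.3. Genes passed filterByExpr (at least 10 counts, total at least 15), libraries were scaled by TMM, and a robust quasi-likelihood model held 1 mean per group. Each experiment and kind of RNA was fitted alone, and both kinds together for their difference. Tests were two-sided with Benjamini-Hochberg adjustment over all genes tested. Rhythms were fitted by cosine and sine terms. Correlations used Python 3.11.15 with NumPy 2.4.6 and SciPy 1.17.1. Scripts were tested on simulated data. No pair of libraries held the same values, and replicates differed by more than counting noise.

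The members and gene lists were chosen with earlier results of these data known. Beside the 10 genes, the text names by rule the 3 highest and 3 lowest called of 45 other pathway genes in each mean comparison, the 3 largest called at each recovery time, near copies, and the genes most like each member. ICS2, RCA, NPR3 and NPR4 outside these ranks, and the overlapping genes, were named after their values were seen. Total counts per library, given in the report, set the precision, and CBP60G and the PR genes rest on few reads.

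The alternatives, with effects given at the end, were RLE scaling, DESeq2 1.42.0, a minimum count of 1, the replicate block, fits of only the groups compared, subsets of times, a step between depth blocks, and leaving out a replicate number or 1 control library. Total-count scaling, thinning, leaving out libraries that stood apart and a block by library pair were added after the data were seen.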

Additional observations from a re-analysis of the deposited data

Results flagged for a closer look

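The heat effect differed between TRAP and total mRNA, by the test of the difference itself, for PAD4 by 0.92 and for SARD1 by 0.70 on the log2 scale, each less negative on ribosomes. Both genes were also lower in TRAP than in total mRNA at 22 °C, a call that SARD1 lost under total-count scaling (-0.20, adjusted p = 0.064).

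The effect of the earlier heat differed among 0, 1, 3 and 6 h of recovery by an F test with 3 degrees of freedom in edgeR. In total mRNA this held for PAD4 (adjusted p = 6.03e-07) and SARD1 (adjusted p = 0.0145), 2 of 8 members tested, where 41.9% of all genes passed. In TRAP mRNA it held for PAD4 (adjusted p = 0.000338), EDS5 (0.00527), NPR1 (0.00838) and SARD1 (0.0189), 4 of 9, where 51.1% of all genes passed. PAD4 passed under every alternative run, and SARD1, EDS5 and NPR1 each failed under at least 1, with adjusted p up to 0.25 for SARD1 in total mRNA and, in TRAP mRNA, up to 0.14 for SARD1, 0.59 for EDS5 and 0.057 for NPR1.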

How the results depend on the processing

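Over 19 alternatives, 4192 values of single genes stayed on their side of the threshold (uncalled values changed sign in 0 to 31 cases per alternative), 171 lost a call, 126 gained one and 25 changed sign with a call. Of these 25, 24 came from scaling to total counts, which lowers heated libraries. There EDS5 was at -0.36 (total) and -0.44 (TRAP) in the mean. At single times it was at -0.26, -0.55, -0.37, -0.37, -0.66, -0.30 and -0.40 at ZT48, ZT51, ZT54, ZT57, ZT60, ZT66 and ZT69 in total mRNA. It was at -0.46, -0.50, -0.46, -0.36, -0.46, -0.41, -0.44 and -0.43 from ZT48 to ZT69 in TRAP mRNA, and then at -0.43 (total) and -0.19 (TRAP) at 0 h of recovery, with changes from 0 to 1 h of 0.64 and 0.18. SARD1 in TRAP mRNA was at -1.12 at ZT54 and -0.95 at ZT69, and NPR1 in TRAP against total mRNA of controls at 0.21. PR2 at 6 h in total mRNA was at 4.06 without the 6 h controls numbered 1 and 3, which were left out after the data were seen, as were all changes of scaling, thinning or libraries that stood apart.

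Counts of members called after heat (8 in total and 7 in TRAP mRNA), with time of day (0 and 0), between kinds of RNA in controls (7) and at 1 and 3 h in total mRNA (0) moved by at most 1.5 times. Pairs of gene and time went from 41 to 24 with thinning and 27 to 32 without a replicate in total mRNA, and from 40 to 66 with total counts in TRAP mRNA. The 2 differences between TRAP and total mRNA became 1 to 2 without a replicate. Rhythms in total mRNA went from 2 to 1 (thinned) and 4 (total counts), and in TRAP mRNA from 5 to 3 to 4 without a replicate.

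In recovery, the effect by time went from 2 to 1 (thinned) and 5 (total counts) in total mRNA and to 2 to 5 in TRAP mRNA without a replicate. Calls at 0 h in total mRNA went from 4 to 2 with DESeq2, 2 thinned, 7 with total counts and 2 to 3 without a replicate, and in TRAP mRNA from 4 to 2 to 4 without a replicate. TRAP calls at 1 h went from 1 to 2 with DESeq2, 2 with only the groups compared, 0 thinned, 3 without the 6 h controls numbered 1 and 3, and 0 without a replicate. At 3 h they went from 1 to 0 with only the groups compared, 2 without those controls and 0 to 2 without a replicate. At 6 h the 2 TRAP calls became 0 with only the groups compared, 1 with total counts and 0 to 5 without a replicate. The 2 in total mRNA became 0 with only the groups compared or thinned, and 0 to 3 without a replicate. Without those controls 1 control is left at 6 h, so whether the 6 h calls hold cannot be decided. The cause was not tested.

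The replicate numbers were not taken to pair control and heated libraries: same-numbered deviations correlated at -0.277 to 0.569 (median 0.0128), over 0.1 in 19 of 70 pairs, although in all 3 pairs at ZT51 in both kinds of RNA and at ZT66 in TRAP mRNA, where the block changed no member's call. Total and TRAP libraries of the same number correlated over 0.1 in 56 of 73 pairs, and the block by library pair added 3 calls and lost none. Both sets of correlations used CPM of the total counts, without TMM scaling. With the replicate block, the 6 h TRAP calls went from 2 to 1, ICS1 at 0 h in total mRNA had an adjusted p of 0.057, and no other count moved by over 1.5 times.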

Other observations

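Control seedlings were also sampled at ZT72, 24 h after ZT48, with no heated counterpart. EDS5 had 27.1, 29.0 and 30.5 CPM in total mRNA at ZT72 and 16, 16.7 and 15.6 CPM at ZT48, without overlap, and 22.9, 26.4 and 23.8 CPM against 13.5, 20.2 and 12.0 CPM in TRAP mRNA. CBP60G, in contrast, had 1.09, 1.49 and 0.74 CPM at ZT72 and 1.14, 1.21 and 0.718 CPM at ZT48 in total mRNA. ICS1 had 6.24, 7.93 and 6.47 CPM and 6.47, 4.08 and 5.55 CPM. The difference between these times was not tested, and the libraries from ZT60 on have the lower depth given above.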
